A study of Mus musculus with 26 samples.

Results

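The Kv4 potassium channel complex was followed by 8 genes: the pore subunits Kcnd2 (Kv4.2) and Kcnd3 (Kv4.3), the cytoplasmic KChIP subunits Kcnip1, Kcnip2, Kcnip3 and Kcnip4, and the transmembrane subunits Dpp6 and Dpp10. They were taken by name, 8 of the 36589 genes in the deposited table, and each was described across the 5 projection systems and across the authors' clusters and joint clusters. The study profiled single neurons of the mouse thalamus that carried a fluorescent retrograde label, an agent taken up by axon endings and carried back to the cell body, so that each neuron was known by the cortical system it projects to. The systems were auditory (5 animals, 380 cells), motor (5 animals, 484 cells), prefrontal (4 animals, 388 cells), somatosensory (3 animals, 285 cells) and visual (4 animals, 435 cells). One animal identifier, listed with an age of 70 for auditory replicate 5 and of 91 for visual replicate 1, occurs in both systems, and it was counted in each. All animals were listed as male, with ages of 64 to 112 in a column without a unit, and no group carried a listed genotype or treatment beyond the label. The sources used here give neither the strain nor the injected agent, and fluorescent cells were picked by hand from slices kept in blockers of neuronal activity.

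Kv4 channels carry a fast, rapidly inactivating potassium current at voltages below the spike threshold, the A-type current, in dendrites and cell bodies. KChIPs are calcium-binding proteins of the neuronal calcium sensor family that bind the cytoplasmic end of Kv4 subunits, raise the number of channels at the membrane and slow their inactivation, and DPP subunits (DPPX and DPPY, peptidase-like proteins without enzyme activity) speed their gating. In thalamic relay neurons the A-type current opposes the low-threshold calcium current that drives burst firing. KChIP3 is also known as DREAM, a calcium-sensitive repressor that binds the DNA element DRE, and as calsenilin.

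Expression was measured as UMI counts (a unique molecular identifier, or UMI, tags 1 captured transcript) in 1972 cells of 26 plates and 3 sequencing batches, with 20509 to 683775 UMIs per cell (median 87292). Cells of an animal and system were summed, which gave 21 sums of 4317156 to 20322775 UMIs, and a sum is 1 replicate below, numbered within its system. Levels per sum are counts per 1e+06 UMIs (CPM), with library sizes scaled by the TMM factors of edgeR (0.956 to 1.06), while levels in clusters, in joint clusters and of the summed cell type markers are CPM without that scaling; UMIs were read from transcript 3′ ends, so levels do not grow with transcript length, although genes may differ in how well they are captured. The somatosensory animals were all in batch 2 and the visual animals all in batch 3, so for these systems batch and system overlap, and 12 of the 13 sort dates held 1 system. At least 3 of 6 markers listed for thalamic projection neurons were detected in 1972 of 1972 cells. Some of the 6 mark neurons in general, so this count does not tell projection neurons from other neurons. In 51 cells 3 or more markers of another cell type were detected, of oligodendrocytes in 47 of them and of GABA neurons in 0. Plates shared 372 cell barcodes, and 0 pairs of cells had identical counts.

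The 8 genes lie on 7 chromosomes of the mouse genome (GRCm38, GENCODE vM21). Kcnd2 spans chr6:21215503-21729805 on the plus strand, and Kcnd3 chr3:105452330-105674002 on the plus strand. Kcnip1 spans chr11:33629339-33993152, Kcnip2 chr19:45791839-45816061, Kcnip3 chr2:127456498-127522094 and Kcnip4 chr5:48389502-49524907, all on the minus strand. Dpp6 spans chr5:26817203-27727505 on the plus strand, and Dpp10 chr1:123321471-124045559 on the minus strand. No exon of another gene in the deposited table overlapped the last 1000 bases before the 3′ ends of their coding transcripts, on either strand. The bases beyond those ends were not searched. The longest stretch shared by transcripts of any 2 of the genes was 45 bases (Kcnip3 and Dpp6), and between Kcnd2 and Kcnd3 it was 23 bases.

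Kcnip1 and Dpp10, the genes with the largest and the most significant differences among systems, are shown by the 250 bases before their annotated starts, from the promoter table of RefSeq (GRCm38.p6), in which all 8 genes matched. Kcnip1 has 3 listed starts, and 3′ counts do not tell which one was used. Capitals mark GTCA, the core of the DRE element that KChIP3 binds, or its reverse complement TGAC, and the GC box GGGCGG or its reverse complement CCGCCC.
Kcnip1 start 1, chr11:33993194-33993443, minus strand: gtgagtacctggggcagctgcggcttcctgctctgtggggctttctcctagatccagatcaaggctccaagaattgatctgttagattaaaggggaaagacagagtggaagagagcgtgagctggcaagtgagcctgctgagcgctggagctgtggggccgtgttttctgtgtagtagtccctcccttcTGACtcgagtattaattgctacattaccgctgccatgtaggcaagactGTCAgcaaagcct
Kcnip1 start 2, chr11:33843687-33843936, minus strand: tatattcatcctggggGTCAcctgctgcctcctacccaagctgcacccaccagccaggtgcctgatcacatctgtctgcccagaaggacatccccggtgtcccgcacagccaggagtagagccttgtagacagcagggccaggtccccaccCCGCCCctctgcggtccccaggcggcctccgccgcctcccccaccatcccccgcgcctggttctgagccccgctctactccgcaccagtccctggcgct
Kcnip1 start 3, chr11:33680683-33680932, minus strand: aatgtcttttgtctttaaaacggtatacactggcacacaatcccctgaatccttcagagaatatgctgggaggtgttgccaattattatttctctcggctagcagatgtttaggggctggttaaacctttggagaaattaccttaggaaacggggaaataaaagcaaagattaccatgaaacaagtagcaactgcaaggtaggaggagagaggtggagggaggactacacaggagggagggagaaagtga
Dpp10 start 1, chr1:124045560-124045809, minus strand: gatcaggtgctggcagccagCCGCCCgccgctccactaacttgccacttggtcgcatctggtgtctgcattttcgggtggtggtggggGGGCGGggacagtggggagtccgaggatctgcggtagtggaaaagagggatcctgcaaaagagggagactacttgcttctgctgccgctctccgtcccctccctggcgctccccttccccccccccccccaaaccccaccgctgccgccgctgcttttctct
The Kcnip1 stretches hold GTCA 2, 1 and 0 times on both strands together, and the GC box 0, 1 and 0 times. The Dpp10 stretch holds the GC box 2 times and GTCA 0 times. Of all 32851 promoter stretches of this length, 80.2% hold GTCA and 32.7% hold the GC box, and in the printed stretches no match of one overlaps a match of the other. G and C make up 52.8%, 67.6% and 44.0% of the Kcnip1 stretches and 65.2% of the Dpp10 stretch, against a median of 52.4% over all promoters. A match is a description of these letters and not a bound site.

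Transcripts of all 8 genes were found in every system, but the levels of most of them differed among systems. Of the 8 genes, 6 differed among the 5 systems (edgeR quasi-likelihood test with batch as a covariate, Benjamini-Hochberg adjusted p under 0.05 over the 17211 genes tested), where 12.6% of all genes tested did. They were Dpp10 (adjusted p = 3.09e-05), Kcnip1 (0.000117), Dpp6 (0.00256), Kcnip2 (0.00273), Kcnd3 (0.00699) and Kcnd2 (0.00805). Kcnip4 (adjusted p = 0.0594) and Kcnip3 (0.183) missed the threshold, though both had an unadjusted p under 0.05. Of the pore subunits, Kcnd2 was at 210 to 379 CPM and Kcnd3 at 36.1 to 109 CPM over the 21 sums. Among the KChIPs, Kcnip4 was at 107 to 346 CPM and Kcnip3 at 7.31 to 95.4 CPM, while Kcnip2 stayed at 0.834 to 27.1 CPM and Kcnip1 covered 0 to 158 CPM. All 8 genes passed the filter on low counts.

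**Figure D1:**
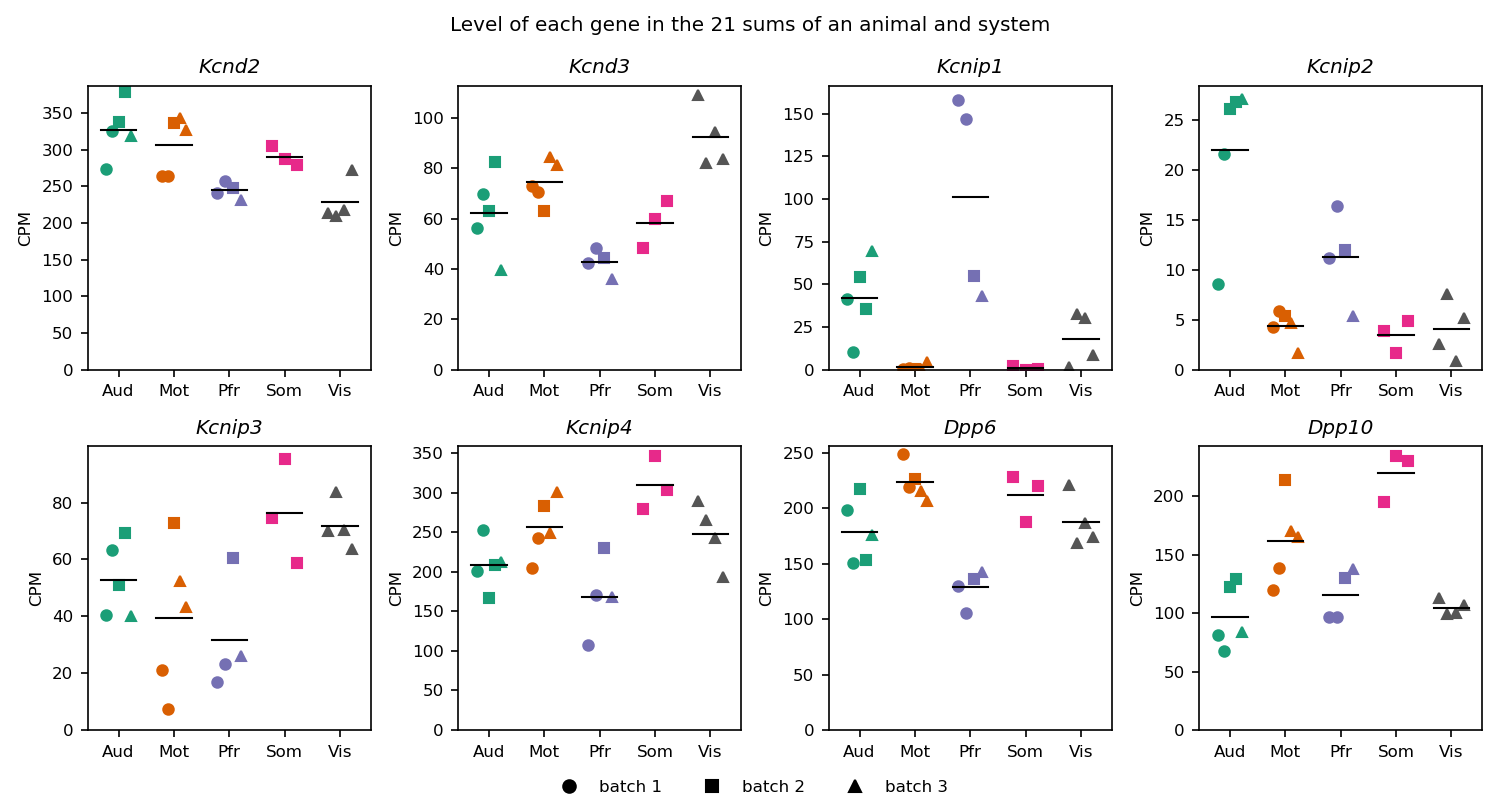
CPM of each of the 8 genes (y axis, linear, from 0) in the 21 sums of an animal and system, by auditory (Aud), motor (Mot), prefrontal (Pfr), somatosensory (Som) and visual (Vis) system. Each symbol is 1 sum, its shape gives the sequencing batch and the bar is the mean; Kcnip1 is at or below 4.66 CPM in all motor and somatosensory sums and at or above 10.3 CPM in all auditory and prefrontal sums.

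Each system was set against the mean of the other 4 in the same fit, and fold changes are log2 values ± SE. In this comparison 4 of the 8 genes were called in auditory neurons (7.97% of all genes), 3 of them higher and 1 lower (4.28% and 3.69% of all genes). Motor neurons had 3 called (3.91%), 2 higher and 1 lower (2.32% and 1.59%), and prefrontal neurons 4 (9.17%), 1 higher and 3 lower (5.19% and 3.97%). In somatosensory neurons 0 of 8 were called (0.232% of all genes) and in visual neurons 0 of 8 (0.145% of all genes) by edgeR, with 4 and 3 at an unadjusted p under 0.05, and DESeq2 called 1 in each, Dpp10 and Kcnd3. The median log2 fold of the 8 genes was 0.13 in auditory neurons, 0.21 in motor neurons, -0.35 in prefrontal neurons, 0.06 in somatosensory neurons and 0.07 in visual neurons, while that of all genes tested lay between -0.01 and 0.03 in the 5 comparisons. Sums were treated as independent, including those of the animal identifier listed in 2 systems, and the p-values measure differences against the variation among animals, where 14 of the 21 sums shared a sort date with another of their system.

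**Figure D2:**
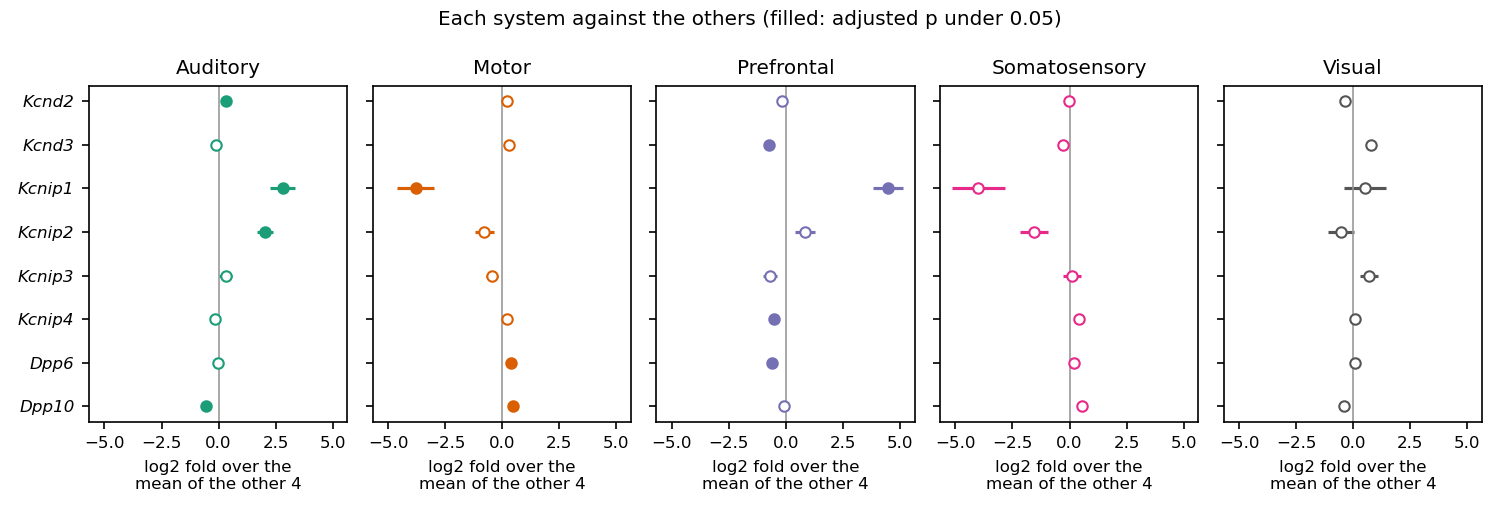
Log2 fold change (x axis) of each gene in a system over the mean of the other 4, with bars of 1 SE from the edgeR fit with batch as a covariate; filled points have an adjusted p under 0.05. Kcnip1 has the widest spread, with 4.47 ± 0.66 in prefrontal and -3.79 ± 0.81 in motor neurons, and the called folds of the other genes lie between -0.74 and 2.04.

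Kcnd2, the pore subunit of most somatodendritic A-type channels in many neurons, was highest in auditory neurons. It was at 274, 325, 337, 379 and 319 CPM in the auditory sums, against 264, 264, 336, 343 and 327 CPM in motor sums, 241, 258, 249 and 231 CPM in prefrontal sums, 305, 287 and 279 CPM in somatosensory sums and 214, 210, 218 and 272 CPM in visual sums. The auditory values lay above every prefrontal and visual value and overlapped the motor and somatosensory ones. In the auditory neurons Kcnd2 rose by 0.32 ± 0.08 (adjusted p = 0.0159), and by pairs it was higher in auditory than in prefrontal neurons (0.39 ± 0.10, adjusted p = 0.0374) and in auditory than in visual neurons (0.54 ± 0.13, adjusted p = 0.0478). Within batches 1, 2 and 3 the auditory fold was 0.23, 0.31 and 0.29, with adjusted p of 0.614, 0.316 and 0.406 in the edgeR fit, and it also missed the threshold with no filter on low counts (adjusted p = 0.069), with cells thinned to 20000 UMIs (adjusted p = 0.0627), and without auditory replicate 2 (0.27, adjusted p = 0.0637) or auditory replicate 4 (0.28, adjusted p = 0.0664). Auditory and motor means, 327 ± 37.5 and 307 ± 39.6 CPM (SD, n = 5 each), differed by less than their spread.

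Kcnd3, the other pore subunit of these cells, ran from high in visual to low in prefrontal neurons. It was at 42.5, 48.5, 44.2 and 36.1 CPM in prefrontal sums, against 56.4, 69.9, 63.0, 82.3 and 39.6 CPM in auditory sums, 73.0, 70.4, 63.2, 84.4 and 81.4 CPM in motor sums, 48.4, 59.9 and 66.9 CPM in somatosensory sums and 109, 82.2, 94.5 and 83.7 CPM in visual sums. The prefrontal values lay below all motor and visual values and overlapped the auditory and somatosensory ones. Kcnd3 fell in prefrontal neurons against the others by 0.74 ± 0.16 on the log2 scale (adjusted p = 0.0042), to 0.46 times the visual mean (42.8 ± 5.18 CPM, n = 4, against 92.3 ± 12.4 CPM, n = 4; -1.23 ± 0.23, adjusted p = 0.00339). In the 3 batches taken alone the prefrontal fold was -0.58, -0.55 and -0.90, with adjusted p of 0.264, 0.735 and 0.188. In visual neurons the fold over the others was 0.80 ± 0.20 with an adjusted p of 0.132 in the edgeR fit, and within batch 3, where all visual animals lie, it was 0.91 ± 0.15 (adjusted p = 0.0157). Without prefrontal replicate 4 the test of any difference gave an adjusted p of 0.0654.

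Kcnip1, which encodes KChIP1, a subunit best known from GABA neurons of cortex and hippocampus, had the largest differences. It was at 158, 147, 55.0 and 43.4 CPM in prefrontal sums, against 41.3, 10.3, 54.4, 35.8 and 69.8 CPM in auditory sums, 0.231, 1.04, 0.498, 0.546 and 4.66 CPM in motor sums, 1.90, 0 and 0.498 CPM in somatosensory sums and 1.32, 32.9, 30.5 and 8.38 CPM in visual sums. Prefrontal and auditory values overlapped each other and lay above all motor and somatosensory values, while the visual animals spread between these groups. Kcnip1 had 4428 UMIs in all prefrontal cells and 1325 in auditory cells, against 76 in motor, 26 in somatosensory and 434 in visual cells. Kcnip1 rose in prefrontal neurons (4.47 ± 0.66, adjusted p = 0.000132) and in auditory neurons (2.81 ± 0.56, adjusted p = 0.00299), and it fell in motor neurons by 3.79 ± 0.81 on the log2 scale (adjusted p = 0.00858). In somatosensory neurons the fold was -4.00 ± 1.161 with an adjusted p of 0.19. By pairs, Kcnip1 was higher in auditory than in motor neurons (5.28 ± 0.89, adjusted p = 0.00053), higher in auditory than in somatosensory neurons (5.45 ± 1.159, adjusted p = 0.00802), lower in motor than in prefrontal neurons (-6.60 ± 0.96, adjusted p = 0.000103) and higher in prefrontal than in somatosensory neurons (6.77 ± 1.28, adjusted p = 0.00335). Auditory against prefrontal neurons gave -1.33 ± 0.80 (adjusted p = 0.407), and motor against somatosensory neurons 0.17 ± 1.30.

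The prefrontal animals with the highest Kcnip1 were both in batch 1 and both listed at an age of 91, against 77 and 70 for the others. Within batches 1, 2 and 3 the prefrontal fold of Kcnip1 was 5.20, 4.38 and 1.54 (adjusted p = 0.00218, 0.0255 and 0.638), the auditory fold 1.36, 4.01 and 2.45 (adjusted p = 0.372, 0.0201 and 0.276) and the motor fold -6.56, -4.61 and -3.82 (adjusted p = 0.0029, 0.619 and 0.119). The direction was thus the same in all 3 batches for each of these systems, and the size was not. The auditory call was lost without auditory replicate 5 (2.72 ± 0.77, adjusted p = 0.0521), and the motor call without somatosensory replicate 1 (-3.43 ± 0.94, adjusted p = 0.0533).

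Since KChIP1 is known from GABA neurons, the defining markers of that cell type were set beside these values. Gad1, a GABA-synthesising enzyme, had 3 UMIs in all prefrontal cells and 2 in all auditory cells, and Slc32a1, the vesicular GABA transporter, had 0 in both. Gad2, the second GABA-synthesising enzyme, had 400 UMIs in prefrontal cells and 121 in auditory cells, against 1 in motor, 2 in somatosensory and 4 in visual cells. Its UMIs came from 16 of 388 prefrontal cells and 6 of 380 auditory cells. Of the 165 prefrontal cells with a Kcnip1 UMI, 11 also held Gad2, as did 3 of the 50 such auditory cells. The summed level of the 6 GABA neuron markers was 2.66 to 17.6 CPM in prefrontal sums and 0 to 72.0 CPM in auditory sums, against 0 to 3.90 CPM in motor, 0.207 to 6.45 CPM in somatosensory and 0.839 to 9.58 CPM in visual sums.

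Kcnip2, which encodes KChIP2, the main KChIP of the heart and also found in brain, was highest in auditory neurons. It was at 8.59, 21.6, 26.1, 26.7 and 27.1 CPM in auditory sums, against 4.28, 5.90, 5.41, 4.64 and 1.63 CPM in motor sums, 11.2, 16.4, 12.02 and 5.34 CPM in prefrontal sums, 3.90, 1.68 and 4.91 CPM in somatosensory sums and 2.56, 7.57, 0.834 and 5.19 CPM in visual sums. All auditory values lay above all motor, somatosensory and visual values, and 1 of the 5 overlapped the prefrontal range. Kcnip2 rose in auditory neurons by 2.04 ± 0.35 (adjusted p = 0.000921), and by pairs it was higher in auditory than in motor neurons (2.26 ± 0.50, adjusted p = 0.0055) and in auditory than in somatosensory neurons (2.86 ± 0.65, adjusted p = 0.0125). Within batches 1, 2 and 3 the auditory fold was 0.86, 2.11 and 2.73, with adjusted p of 0.597, 0.0622 and 0.136.

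Kcnip4, which encodes KChIP4, a subunit whose isoforms include one that slows inactivation strongly, was the most abundant KChIP transcript in the mean of every system. It was at 107, 170.0, 229.6 and 167 CPM in prefrontal sums, against 201, 253, 167, 209 and 213 CPM in auditory sums, 205, 242, 283, 249 and 300.4 CPM in motor sums, 279, 346 and 303 CPM in somatosensory sums and 289, 265, 242 and 193 CPM in visual sums. Prefrontal values overlapped the auditory, motor and visual ranges and lay below the somatosensory one. Against the others Kcnip4 fell in prefrontal neurons by 0.54 ± 0.15 on the log2 scale (adjusted p = 0.0237), although its test of any difference missed the threshold. Fitted within batches 1, 2 and 3 alone, this fold was -0.72, -0.15 and -0.54 (adjusted p = 0.149, 1.00 and 0.358), and the call was lost without prefrontal replicate 1 (-0.41, adjusted p = 0.0942) or prefrontal replicate 4 (-0.52, adjusted p = 0.0926). By pairs, Kcnip4 was higher in motor than in prefrontal neurons (0.59 ± 0.17, adjusted p = 0.0293) and lower in prefrontal than in somatosensory neurons (-0.78 ± 0.22, adjusted p = 0.0469).

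Kcnip3 was called in 0 of the 5 systems by edgeR with batch as a covariate and by DESeq2, and in prefrontal neurons it had an unadjusted p under 0.05. It was at 40.5, 63.5, 51.1, 69.3 and 40.0 CPM in auditory sums, 21.1, 7.31, 73.0, 52.4 and 43.3 CPM in motor sums, 16.8, 23.3, 60.5 and 26.05 CPM in prefrontal sums, 74.4, 95.4 and 58.7 CPM in somatosensory sums and 69.8, 83.8, 70.3 and 63.5 CPM in visual sums. The systems overlapped widely, except that all visual values lay above all prefrontal ones. Its spread ran with batch: the motor animals of batch 1 were at 21.1 and 7.31 CPM and the prefrontal animals of batch 1 at 16.8 and 23.3 CPM, against 43.3 to 73.0 CPM and 26.05 to 60.5 CPM in batches 2 and 3. In batch 1 the auditory animals were at 40.5 and 63.5 CPM. Listed ages ran with batch as well, at 112 in batch 1 against 69 and 71 in motor animals, and 91 against 77 and 70 in prefrontal animals. Motor cells of batch 1 were also deeper, with medians of 204544 and 215799 UMIs, against 76932 to 83757 in batches 2 and 3. These cannot be told apart from batch here. Within batch 3, where all visual animals lie, the visual fold was 0.96 ± 0.16 (adjusted p = 0.0207). In prefrontal neurons the fold was -0.85 (adjusted p = 0.0286) without motor replicate 2 and -0.69 (adjusted p = 0.00718) with no filter on low counts.

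Dpp6, which encodes DPPX, a subunit that speeds Kv4 gating and carries the channel to the membrane, was lowest in prefrontal neurons. It was at 129.8, 105, 136 and 143 CPM in prefrontal sums, against 198, 150.4, 217, 153 and 176 CPM in auditory sums, 249, 219, 226, 215 and 207 CPM in motor sums, 228, 187 and 220.0 CPM in somatosensory sums and 221, 168, 186 and 174 CPM in visual sums. All 4 prefrontal values lay below all 17 values of the other systems. Dpp6 fell in prefrontal neurons by 0.62 ± 0.11 on the log2 scale (adjusted p = 0.00103) and rose in motor neurons by 0.38 ± 0.10 (adjusted p = 0.0326). By pairs, it was higher in auditory than in prefrontal neurons (0.47 ± 0.13, adjusted p = 0.0424), higher in motor than in prefrontal neurons (0.80 ± 0.13, adjusted p = 0.000293) and lower in prefrontal than in somatosensory neurons (-0.67 ± 0.17, adjusted p = 0.0261). Within batches 1, 2 and 3 the prefrontal fold was -0.80, -0.61 and -0.42 (adjusted p = 0.0698, 0.498 and 0.396) and the motor fold 0.72, 0.39 and 0.33 (adjusted p = 0.0867, 1.00 and 0.251). The motor call was lost without any 1 of the 5 motor sums, without prefrontal replicate 2 or without visual replicate 4, with adjusted p of 0.0503 to 0.128.

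Dpp10, which encodes DPPY, the related subunit, had its lowest means in auditory and visual neurons. It was at 81.6, 67.8, 122, 129 and 83.9 CPM in auditory sums, against 119.9, 139, 214, 170.1 and 165 CPM in motor sums, 97.0, 96.5, 129.6 and 138 CPM in prefrontal sums, 195, 234 and 229.7 CPM in somatosensory sums and 113, 99.3, 100.3 and 107 CPM in visual sums. The somatosensory values lay above all auditory, prefrontal and visual values, and 1 motor value fell within their range. Auditory, prefrontal and visual values overlapped one another. Dpp10 fell in auditory neurons by 0.55 ± 0.09 on the log2 scale (adjusted p = 0.000646) and rose in motor neurons by 0.47 ± 0.08 (adjusted p = 0.00273), while in somatosensory neurons the fold was 0.57 ± 0.13 with an adjusted p of 0.0771. By pairs, Dpp10 was lower in auditory than in motor neurons (-0.81 ± 0.11, adjusted p = 5.45e-05) and than in somatosensory neurons (-0.89 ± 0.13, adjusted p = 0.000443). It was higher in motor than in prefrontal (0.45 ± 0.11, adjusted p = 0.00997) and visual neurons (0.68 ± 0.13, adjusted p = 0.0117), and lower in prefrontal than in somatosensory neurons (-0.53 ± 0.15, adjusted p = 0.0451). In the same edgeR fit auditory against prefrontal neurons gave -0.36 ± 0.11 (adjusted p = 0.0774), and prefrontal against visual neurons 0.23 ± 0.14 (adjusted p = 0.489). The auditory fold within batches 1, 2 and 3 was -0.58, -0.54 and -0.68 (adjusted p = 0.29, 0.138 and 0.0904) and the motor fold 0.61, 0.50 and 0.65 (adjusted p = 0.147, 1.00 and 0.0215). Without a batch term the motor fold was 0.35 (adjusted p = 0.24) and the somatosensory fold 0.91 (adjusted p = 0.00253).

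No difference in these genes was called between motor and somatosensory neurons. In that comparison edgeR called 0 of the 8 genes and 0 of all 17211 genes, with 0 of 8 and 665 of all genes at an unadjusted p under 0.05, and no other tool was run on the pairs. The log2 folds of motor over somatosensory neurons were 0.19 ± 0.13 for Kcnd2, 0.46 ± 0.23 for Kcnd3, 0.60 ± 0.66 for Kcnip2, -0.45 ± 0.43 for Kcnip3, -0.19 ± 0.22 for Kcnip4, 0.13 ± 0.17 for Dpp6 and -0.08 ± 0.14 for Dpp10. Only 1 motor animal was sequenced with the somatosensory animals in batch 2. Motor and prefrontal neurons differed in the most of the 8 genes, 5, where 10.8% of all genes were called: Dpp10, Dpp6, Kcnd3 and Kcnip4 were higher and Kcnip1 lower in motor neurons. Auditory against motor neurons gave 3 of 8 (8.52% of all genes), auditory against somatosensory 3 (4.78%), auditory against prefrontal 2 (4.54%), prefrontal against somatosensory 4 (4.03%), prefrontal against visual 1 (3.05%), auditory against visual 1 (0.761%) and motor against visual 1 (0.686%). Somatosensory against visual neurons gave 0 of 8 by edgeR (0.0465% of all genes), with 3 at an unadjusted p under 0.05.

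The make-up of these transcripts can be read as shares within each subunit class. Kcnd3 took 28.9% ± 4.30 of the Kcnd2 and Kcnd3 UMIs in visual sums (SD, n = 4), 19.6% ± 2.28 in motor sums (n = 5), 16.8% ± 2.86 in somatosensory sums (n = 3), 15.9% ± 2.83 in auditory sums (n = 5) and 14.9% ± 0.990 in prefrontal sums (n = 4). Kcnip4 took 85.7% ± 6.38 of the KChIP UMIs in motor sums, 79.4% ± 2.67 in somatosensory sums, 72.4% ± 5.06 in visual sums, 63.9% ± 6.74 in auditory sums and 54.4% ± 15.0 in prefrontal sums. Kcnip1 took 32.1% ± 18.6 of them in prefrontal sums, with a range of 15.4% to 53.9%, and 13.2% ± 6.79 in auditory sums, against 5.20% ± 4.15 in visual, 0.431% ± 0.517 in motor and 0.222% ± 0.275 in somatosensory sums. The prefrontal animals of batch 1 differed in order. Kcnip1 supplied more KChIP UMIs than Kcnip4 in replicate 1 (1063 against 721) and fewer in replicate 2 (1966 against 2273). Dpp10 took 50.9% ± 4.78 of the Dpp6 and Dpp10 UMIs in somatosensory sums, 47.1% ± 2.95 in prefrontal sums, 41.7% ± 6.21 in motor sums, 36.0% ± 1.93 in visual sums and 34.9% ± 6.61 in auditory sums.

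The shares of Kcnd3, Kcnip4 and Dpp10 were compared between all 10 pairs of systems by a two-sided exact permutation test over sums, 30 tests in all. With Benjamini-Hochberg adjustment over the 30, 0 passed; the smallest adjusted p of these exact tests was 0.0893, and 12 had an unadjusted p under 0.05. Of the 30, 5 such pairs were for Kcnd3, 4 for Kcnip4 and 3 for Dpp10. The design limits these tests, since 5 sums against 5 cannot go below an exact p of 0.00794, 4 against 4 below 0.0286 and 3 against 4 below 0.0571. Auditory against visual neurons, for example, differed by -13.0 percentage points in the Kcnd3 share with groups that do not overlap (exact p = 0.0159, adjusted p = 0.0893, n = 5 and 4). Motor against prefrontal neurons differed by 31.3 percentage points in the Kcnip4 share, again without overlap (exact p = 0.0159, adjusted p = 0.0893, n = 5 and 4).

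**Figure D3:**
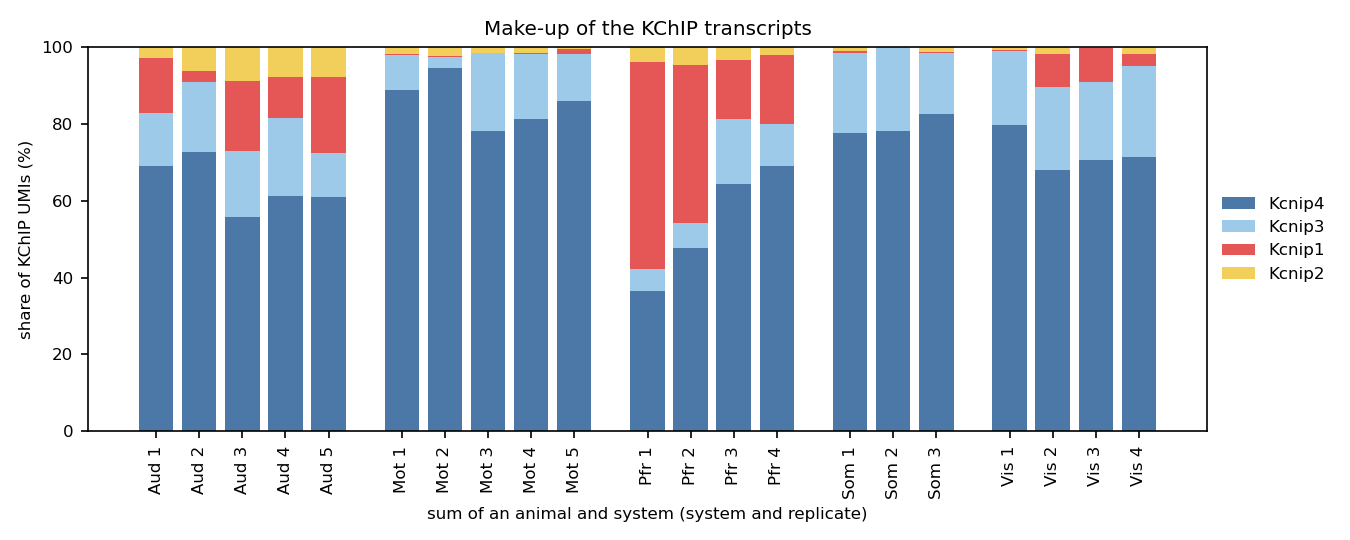
Share of Kcnip4, Kcnip3, Kcnip1 and Kcnip2 in the KChIP UMIs (y axis, percent) of each of the 21 sums, labelled by system (Aud, Mot, Pfr, Som, Vis) and replicate. Kcnip4 takes 78.2% or more in every motor sum, and Kcnip1 takes 53.9% in prefrontal replicate 1.

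The authors' 17 clusters within systems show which cells held these transcripts. The clusters are groupings of the same cells and were not tested, so their levels are given as a description, as mean ± SD over the animals with at least 10 cells in the cluster. Kcnip1 was concentrated in a few clusters. It was at 206 ± 66.7 CPM in Aud_3 (n = 3), with 279, 148 and 193 CPM per animal, against 2.95 ± 5.64 CPM in Aud_1 (n = 4) and 5.42 ± 11.7 CPM in Aud_2 (n = 5). Aud_3 held 63 of the auditory cells and 78.7% of the auditory Kcnip1 UMIs, while it held 15.1% of all auditory UMIs. In visual neurons Kcnip1 was at 122, 72.0 and 19.2 CPM in the 3 animals with at least 10 cells in Vis_3, against means of 0.127 CPM in Vis_1 and 0.540 CPM in Vis_2, and Vis_3 held 95.6% of the visual Kcnip1 UMIs. In prefrontal neurons it was at 182 and 173 CPM in the 2 animals of Pfr_3, 133 and 69.5 CPM in those of Pfr_4 and 46.8 and 13.8 CPM in those of Pfr_2, with 1 UMI in the 44 cells of Pfr_1. Pfr_3 was made up of 113 cells of batch 1 only, so its level cannot be told apart from that batch or from the listed age of its animals. No motor or somatosensory cluster had a mean above 3.82 CPM. With cells thinned to 20000 UMIs, Kcnip1 was detected in 9.63% of Vis_3 cells, against 46.0% in Aud_3, 53.1% in Pfr_3 and 45.4% in Pfr_4.

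Where Kcnip1 was high in auditory neurons, Kcnd2 and Kcnd3 were low. In Aud_3 Kcnd2 was at 130 ± 45.2 CPM and Kcnd3 at 23.6 ± 8.65 CPM, against 476 ± 20.7 and 113 ± 15.8 CPM in Aud_1, and the order held in the 3 animals that had both clusters. Kcnip2 was highest in the same cluster, at 83.2 ± 22.4 CPM in Aud_3, against 19.2 ± 16.1 CPM in Aud_2 and 10.4 ± 17.2 CPM in Aud_1. Dpp10 was at 65.6 ± 17.3 CPM in Aud_3, against 126 ± 25.5 CPM in Aud_1, whereas Kcnip4 was at 210 ± 35.9 CPM in Aud_3, against 227 ± 41.1 CPM in Aud_1. In visual neurons Kcnd3 was at 55.9 ± 9.19 CPM in Vis_3, against 103 ± 13.6 CPM in Vis_1 and 99.8 ± 8.36 CPM in Vis_2, while Kcnd2 was at 243 ± 46.8 CPM in Vis_3, against 248 ± 57.3 CPM in Vis_1. Dpp6 and Dpp10 were also lower in Vis_3, at 122 ± 15.9 and 73.9 ± 20.7 CPM, against 229 ± 25.4 and 138 ± 16.1 CPM in Vis_1. Prefrontal clusters did not follow a single order. Kcnd2 was at 234 ± 11.5 CPM in Pfr_3, 187 ± 7.27 CPM in Pfr_4 and 318 ± 2.08 CPM in Pfr_2 (n = 2 each). In Pfr_1, which had almost no Kcnip1, Kcnd2 was at 198 CPM (n = 1), below Pfr_3. Kcnd3 was at 46.5 ± 1.65, 23.7 ± 4.37 and 54.2 ± 8.51 CPM in Pfr_3, Pfr_4 and Pfr_2, and at 56.9 CPM in Pfr_1.

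Kcnip3 separated the clusters within motor and somatosensory neurons, though it was not called between systems. It was at 138 ± 27.9 CPM in Mot_2, against 11.1 ± 9.70 CPM in Mot_1, 16.5 ± 14.8 CPM in Mot_3 and 45.7 ± 11.9 CPM in Mot_4. In all 4 animals that had both, Mot_2 was above Mot_1. In somatosensory neurons Kcnip3 was at 111 ± 17.8 CPM in Som_2 (n = 3), against 5.34 ± 4.13 CPM in Som_3 (n = 2) and 72.1 ± 6.75 CPM in Som_1 (n = 2). In auditory neurons it was at 105 ± 19.3 CPM in Aud_1, against 9.69 ± 8.97 CPM in Aud_3. Kcnd2 was also highest in Mot_2 and Som_2. It was at 404 ± 60.8 CPM in Mot_2, against 233 ± 56.2 CPM in Mot_1, and at 405 ± 36.7 CPM in Som_2, against 211 ± 34.7 CPM in Som_3. The other clusters did not follow Kcnip3 as closely. Kcnd2 was at 332 ± 54.1 CPM in Mot_3, 363 ± 72.6 CPM in Mot_4 and 218 ± 10.1 CPM in Som_1. The batch 1 motor cells were mostly of Mot_3, 106 cells, with 12 of Mot_2, whereas batch 2 held 97 motor cells of Mot_2 and 13 of Mot_3. The motor animals with low Kcnip3 thus had few cells of the cluster with high Kcnip3, but whether this set their level was not tested. Within Mot_1 Kcnip3 was also lower in the batch 1 animals, at 2.75 and 0.261 CPM. The motor animals of batches 2 and 3 were at 13.51 to 24.2 CPM there. Within Mot_2 and Mot_3 the batch 1 values fell in the range of the other motor animals.

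**Figure D4:**
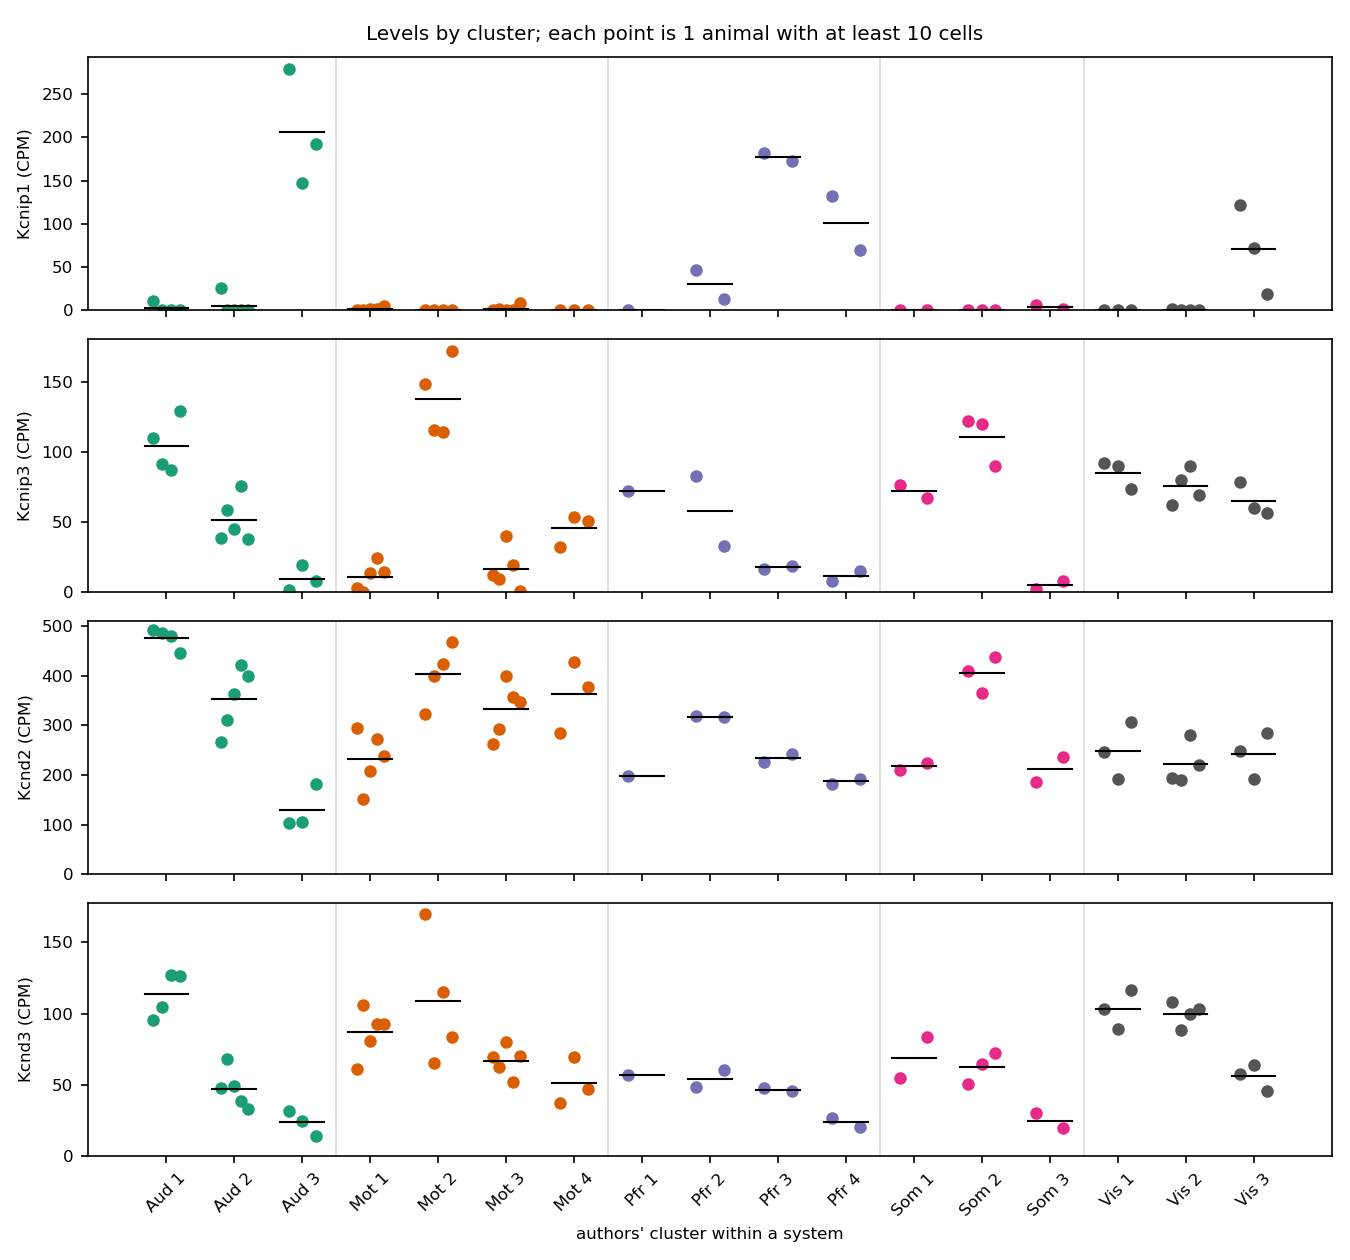
CPM (y axis, linear, from 0) of Kcnip1, Kcnip3, Kcnd2 and Kcnd3 in the authors' 17 clusters; each point is 1 animal with at least 10 cells in the cluster and the bar is the mean. Kcnip1 stands out in Aud_3, Pfr_3, Pfr_4 and Vis_3, and Kcnip3 is highest in Mot_2 at 138 ± 27.9 CPM.

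Over the 17 clusters, each taken as 1 level over all its cells, Kcnip1 and Kcnip2 had a Pearson r of 0.76 on log2(CPM + 1). Kcnip1 had an r of -0.75 with Kcnip4, -0.72 with Dpp10 and -0.65 with Dpp6. Kcnd2 had an r of 0.60 with Kcnip3, and Kcnd3 had an r of 0.65 with Kcnip3 and 0.63 with Dpp6. These are descriptions over clusters that share animals and libraries. Taken as the ratio of the highest to the lowest cluster, Kcnip4 varied least of the 7 genes detected in every cluster, 2.40 times from 148 CPM in Pfr_3 to 354 CPM in Som_2, while Kcnip3 varied 24.1 times, from 5.19 CPM in Som_3 to 125 CPM in Mot_2.

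The authors' 9 joint clusters, made over all systems, allow systems to be set side by side within a cluster. Joint clusters 1, 2 and 4 held both motor and somatosensory cells. In these, Dpp10 was at 170 ± 42.1, 182 ± 37.8 and 189.8 ± 62.6 CPM in motor cells, against 205 ± 34.3, 210.2 ± 40.8 and 235 ± 47.4 CPM in somatosensory cells, within the spread between animals. Kcnip3 differed more between joint clusters 2 and 4 than between the 2 systems within either. It was at 96.4 ± 20.05 CPM in motor cells and 112 ± 12.8 CPM in somatosensory cells of joint cluster 2 (n = 3 each). In joint cluster 4 it was at 10.2 ± 7.40 CPM (n = 5) and 18.1 ± 0.0927 CPM (n = 2). In joint cluster 1 the 2 systems did not overlap, at 22.7 to 57.4 CPM in motor cells (n = 3) and 65.7 to 72.0 CPM in somatosensory cells (n = 2). Kcnd2 was at 236 ± 16.6 CPM in motor cells and 203 ± 22.9 CPM in somatosensory cells of joint cluster 1, at 449 ± 35.4 and 405 ± 43.7 CPM in those of joint cluster 2, and at 308 ± 69.1 and 219 ± 13.7 CPM in those of joint cluster 4. Its values overlapped between the 2 systems in joint cluster 2, but not in joint clusters 1 and 4, each with 2 somatosensory animals. Kcnd3 overlapped in joint clusters 1 and 2 but not in joint cluster 4. There it was at 54.2 to 66.9 CPM in motor cells (n = 5), against 23.7 to 40.6 CPM in somatosensory cells (n = 2). In joint cluster 5, Kcnip1 was at 60.4 ± 69.7 CPM in prefrontal cells (11.2 and 110 CPM in 2 animals), against 5.04 ± 9.35 CPM in auditory cells (n = 5). Joint cluster 8 (62 auditory and 3 visual cells) and joint cluster 9 (99 prefrontal cells) had the highest Kcnip1, 197 ± 54.1 and 179 ± 7.08 CPM, and joint clusters 1 to 4 had means of at most 2.44 CPM.

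At the level of cells, each cell was thinned to 20000 UMIs so that depth did not set detection, and no cell fell below that number. Kcnip1 was then detected in 33.8% of prefrontal cells (exact Clopper-Pearson 95% interval 29.1% to 38.7%, counting error only), 9.74% of auditory cells (6.95% to 13.2%), 3.45% of visual cells (1.94% to 5.62%), 1.86% of motor cells (0.854% to 3.50%) and 1.05% of somatosensory cells (0.218% to 3.05%). Without thinning the shares were 42.5%, 13.2%, 5.52%, 4.55% and 1.75%. Over animals the thinned share was 34.9% ± 11.8 in prefrontal sums (n = 4), against 9.68% ± 3.48 in auditory sums (n = 5). The 10% of cells with the most Kcnip1 held 98.9% of its UMIs in auditory neurons and 65.6% in prefrontal neurons. Kcnd2 was detected in 91.3% of motor cells, 90.5% of somatosensory cells, 83.7% of auditory cells, 82.7% of prefrontal cells and 78.6% of visual cells after thinning. Kcnd2 and Kcnd3 were seen in the same thinned cell in 42.3% of visual and 29.9% of prefrontal cells, and at least 2 KChIPs in 48.7% of prefrontal and 32.02% of motor cells. Of the pairs of genes, 6 had a Spearman rho beyond 0.2 in size across the thinned cells of a system, the largest being Kcnip1 with Kcnip2 in auditory cells (0.30) and Kcnd2 with Kcnip1 in auditory cells (-0.28). In sparse counts such values are weak.

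Of 6 other genes of A-type current, among them Kv1.4, Kv3.4 and the Kv beta subunits, all were tested and 4 differed among systems, where 12.6% of all genes did. Kcnc4, the A-type subunit Kv3.4, rose in prefrontal neurons (2.84 ± 0.50, adjusted p = 0.00064) and auditory neurons (2.23 ± 0.47, adjusted p = 0.00457) and fell in somatosensory neurons (-5.03 ± 0.99, adjusted p = 0.034). It averaged 21.2 ± 4.35 CPM in prefrontal and 14.8 ± 7.44 CPM in auditory sums, against 2.39 ± 1.42 CPM in motor, 0.231 ± 0.317 CPM in somatosensory and 9.13 ± 6.00 CPM in visual sums. The beta subunits Kcnab2 and Kcnab3, which bind Kv1 channels, both rose in motor neurons (0.72 and 0.88) and fell in prefrontal neurons (-0.86 and -2.02), and Kcnab2 also fell in auditory neurons (-0.53). Over the list, 1 rose and 3 fell in prefrontal neurons (9.17% of all genes called), 3 rose in motor neurons (3.91%), 1 rose and 1 fell in auditory neurons (7.97%), 1 fell in somatosensory neurons (0.232%) and 0 were called in visual neurons by edgeR, where 1 had an unadjusted p under 0.05. Kcna4 (Kv1.4) and Kcnab1 were not called in any of these tests. The median fold of the 6 was 0.43 in motor and -0.48 in prefrontal neurons, against 0.01 and 0.02 over all genes tested.

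Of 20 listed partners and modulators of Kv4 channels, 16 were tested and 6 differed among systems, where 12.6% of all genes did. The pore gene Kcnd1, kept in this list, was not among the 6 (edgeR test of any difference, adjusted p = 0.867). Prkacb, a catalytic subunit of protein kinase A, which acts on Kv4.2, rose in auditory (0.58 ± 0.08, adjusted p = 0.000146) and prefrontal neurons (0.38 ± 0.09, adjusted p = 0.00931) and fell in motor (-0.45 ± 0.09, adjusted p = 0.00451) and somatosensory neurons (-0.69 ± 0.13, adjusted p = 0.0249). Prkaca, the other catalytic subunit in the list, was called in none of these comparisons (edgeR test of any difference, adjusted p = 0.901). Ncs1, a calcium sensor that also binds Kv4 channels, rose in motor neurons (0.49 ± 0.10, adjusted p = 0.00579) and fell in prefrontal neurons (-0.40 ± 0.11, adjusted p = 0.0235). Of the T-type calcium channels, which carry the low-threshold calcium current, Cacna1i rose in prefrontal neurons (2.05 ± 0.48, adjusted p = 0.00861), where it averaged 19.2 ± 12.8 CPM, against 3.02 to 5.10 CPM in the means of the other systems. Cacna1g fell in prefrontal neurons (-0.33 ± 0.09), and Cacna1h rose in auditory neurons (3.37 ± 0.80) at a mean of 3.98 ± 3.92 CPM. Camk2a, a calcium-dependent kinase that acts on Kv4 channels, fell in prefrontal neurons (-0.52 ± 0.11). Counted by system, 2 rose and 1 fell in auditory neurons (7.97% of all genes called), 1 rose and 1 fell in motor neurons (3.91%), 2 rose and 3 fell in prefrontal neurons (9.17%), 1 fell in somatosensory neurons (0.232%) and 0 were called in visual neurons by edgeR, with 0 at an unadjusted p under 0.05. The median fold of the 16 lay between -0.02 and 0.16 in the 5 systems.

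The genes whose levels over the 21 sums were most like those of each called subunit, among 8900 tested genes with a mean of at least 10 CPM, were listed by Pearson r of log2(CPM + 1). They were Thsd7b (0.95), Fxyd6 (0.94) and Alcam (0.94) for Kcnip1, and Bmp1 (0.94) and Rnd3 (0.90) for Dpp6. For Dpp10 they were Abhd12b (0.91), Pitpnc1 (0.89) and Parva (0.88), for Kcnd3 Thsd7a (0.85), Inpp5f (0.80) and Anxa5 (0.80), and for Kcnip2 Fndc3a (0.84), Nppc (0.82) and Tox (0.80). Kcnd2 had no gene above 0.77, the value of Bcl7a. These r were picked as the highest of many over sums that share batches and are a description. Thsd7b, for example, averaged 38.4 ± 15.4 CPM in prefrontal and 16.3 ± 5.66 CPM in auditory sums, against 0.997 ± 1.79 CPM in motor, 0 CPM in all 3 somatosensory and 3.15 ± 2.06 CPM in visual sums, the same order of systems as for Kcnip1.

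Markers of glia also varied among the sums. The summed level of 6 astrocyte markers was 294 to 439 CPM in prefrontal and 326 to 557 CPM in motor sums, against 146 to 249 CPM in auditory, 144 to 332 CPM in somatosensory and 177 to 208 CPM in visual sums. That of 6 oligodendrocyte markers was 42.1 to 113 CPM in prefrontal sums, 12.5 to 368 CPM in motor, 43.8 to 372 CPM in auditory, 33.9 to 381 CPM in somatosensory and 13.54 to 326 CPM in visual sums. Their part in the differences above was not tested. Without the 51 cells that held 3 or more markers of another cell type, of which 47 were marked by oligodendrocyte and 2 by astrocyte genes, all 11 called folds of the 8 genes remained called. With so few astrocyte-marked cells left out, this check cannot address the astrocyte marker levels.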

How the data were processed

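Retrogradely labelled thalamic neurons were picked by hand and made into 3′ libraries with UMIs on 26 plates, per the labels' protocols. The submitters' processing notes list cutadapt 1.16, Picard 1.12, STAR 2.5.3 and build mm10; the sources used here name neither the gene annotation nor the counting rule. The authors deposited unnormalized UMI counts for each gene in each cell, along with a table of animals, systems and clusters per cell. In 1972 of 1972 cells the genes added up to the total that the authors list; 90 spike-in RNAs were left out.

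Counts were summed per animal and system (at least 10 cells). Of 20 animal identifiers, 1 occurred in 2 systems, so there were 21 sums, of 4317156 to 20322775 UMIs. Tests used edgeR 4.0.16 under R 4.3.3 (filterByExpr, TMM factors of 0.956 to 1.06, trended dispersion, glmQLFit and glmQLFTest, batch as covariate, 14 residual degrees of freedom) on 17211 genes, with Benjamini-Hochberg adjustment at 0.05, after a test on simulated data. The biological coefficient of variation was 0.52. Shares were compared by exact permutation (scipy 1.17.1, Python 3.11.15). Alternatives included DESeq2 1.42.0, other filters, batches and left-out sums. Doublets were not called, since cells were picked by hand. Intervals cover counting error only.

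The 8 genes, the lists, the tests and the trended dispersion were chosen with earlier results of these data known. Named were the 8 genes, members of 2 lists of related genes, and the 3 genes most like each called member; results for some of these are not reported here. Cell type markers were listed likewise. Clusters are the authors'.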

Additional observations from a re-analysis of the deposited data

Results flagged for a closer look

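Over the 8 genes and the systems with 4 or 5 animals, plus the subunit shares, 44 groups were checked for a sample far from the others, and chance flags about 1 in 20 such groups; 2 were found. Kcnd2 in visual replicate 4, at 272 CPM, stood apart from the other visual animals (210 to 218 CPM). Kcnip1 in motor replicate 5, at 4.66 CPM, stood apart from the other motor animals (0.231 to 1.04 CPM); this value rests on 40 UMIs.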

How the results depend on the processing

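All 11 called folds kept their direction in all 396 checks under the alternatives, and 334 of these stayed past the threshold. Of the 33 checks within 1 batch, which have few animals, 5 stayed past it. The number of genes differing among systems was 6; it was 1, 2 and 3 within batches 1, 2 and 3, and 5 to 7 with 1 sum left out. The count of 4 in auditory neurons was 1 without batch 2 and 0, 1 and 0 within batches 1, 2 and 3 (3 to 4 with 1 sum left out). The count of 3 in motor neurons was 1 with no batch term, with cells summed per sort date, without batch 1, without batch 3 and within batches 1 and 3, and 0 within batch 2 (2 to 3 with 1 sum left out). The count of 4 in prefrontal neurons was 1 without batch 1, 2 without batch 3 and 1, 1 and 0 within batches 1, 2 and 3 (3 to 5 with 1 sum left out). The count of 0 in somatosensory neurons was 1 with DESeq2, 1 with no filter and 2 with no batch term (0 to 1 with 1 sum left out), and that of 0 in visual neurons 1 with DESeq2, with no filter and with no batch term, and 2 within batch 3. With cells summed per sort date the calls of Kcnd2 in auditory neurons, Dpp6 and Kcnip1 in motor neurons and Kcnip4 in prefrontal neurons were lost, and that of Kcnd2 also with no filter and with cells thinned. The cause was not tested. Pairs of systems past the threshold in a subunit share were 0 under every alternative run. RLE factors, 1 dispersion for all genes and leaving out cells with markers of other types or cells the authors flagged left all 11 folds called. No paired analysis was possible because only 1 animal identifier occurs in 2 systems, plates are numbered by accession order alone, and the sums of an animal span several plates. The few Kcnip1 UMIs in motor and somatosensory cells limit the precision of its folds there.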
